A study of Mus musculus with 6 samples.

Results

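The cytosolic ribosomal protein genes code for the protein subunits of the ribosomes that translate nuclear transcripts. They were taken as every probe whose single gene symbol names a protein of the large subunit (Rpl), of the acidic stalk (Rplp0, Rplp1 or Rplp2) or of the small subunit (Rps, and Rpsa). The rule found 74 of the 38467 probes on the array, for 38 of the 19640 genes with a probe of their own: 26 of the large and 12 of the small subunit. Rpl13a had 21 of these probes, and no other gene more than 4. Of the stalk genes, Rplp0 was present.

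The cells were C3H10T1/2, a mouse mesenchymal line that can form fat, bone, cartilage and muscle cells. In 1 group, 3 cultures received the solvent DMSO (vehicle). In the other, 3 cultures received 1 µM dexamethasone, a synthetic ligand of the glucocorticoid receptor, and both were sampled at 90 minutes. Each RNA was labelled with Cy3 and hybridised with a Cy5-labelled pool, in which the sample labels list DMSO, dexamethasone and myostatin cultures, whereas the series description lists vehicle and treated cells. All groups are of a single cell line, so the comparison holds for that line. The series description calls the 3 cultures of a group biological replicates.

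Every value below is a deposited log2 ratio of sample to pool, so it gives no level of a gene and genes cannot be ranked by abundance. For the same reason the markers of the cell line could not be checked as levels. The scale was inferred from the values, and the direction, sample over pool, is likely and not settled. Its basis is the targets Dusp1, a phosphatase gene that glucocorticoids induce, and Fkbp5, a co-chaperone gene of the same kind. Dusp1 stood at -2.84, -2.67 and -2.88 with vehicle (arrays 1, 2 and 3 in turn, here and below) and at 1.32, 1.55 and 1.52 with dexamethasone. Fkbp5 stood at -3.02, -3.06 and -3.00 and at 1.30, 0.20 and 1.23. The groups were far apart for both genes. The lowest rank correlation between 2 arrays was -0.33, between vehicle 2 and dexamethasone 3. With the sign turned, every "above" and "below" in what follows changes places, and no size does.

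Ribosomal proteins are needed in equal amounts and join ribosomal RNA in the nucleolus, and their transcripts are among the most abundant in a growing cell. Most of these transcripts begin with a run of pyrimidines, the terminal oligopyrimidine or TOP motif, through which the mTOR pathway and the protein LARP1 set how well they are translated. Several members serve as reference genes in expression assays.

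Sequence around the start of transcription is shown for 5 members whose values are given below, to let the pyrimidine run be seen. Each runs 5′ to 3′ on the transcript's strand from 30 bases before to 30 bases after the annotated start, from RefSeq on GRCm38.p6, with the longest run of C and T in capitals.
Rpl27a, chr7:109519165-109519224, plus strand: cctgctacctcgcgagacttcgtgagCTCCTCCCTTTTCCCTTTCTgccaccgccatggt
Rpl35, chr2:39005102-39005161, minus strand: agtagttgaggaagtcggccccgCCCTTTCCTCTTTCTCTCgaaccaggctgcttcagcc
Rpl15, chr14:18270957-18271016, minus strand: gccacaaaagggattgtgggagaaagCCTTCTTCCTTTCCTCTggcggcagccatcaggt
Rpl13a, chr7:45128716-45128775, minus strand: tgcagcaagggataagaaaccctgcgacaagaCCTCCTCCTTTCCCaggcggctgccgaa
Rps15, chr10:80292401-80292460, plus strand: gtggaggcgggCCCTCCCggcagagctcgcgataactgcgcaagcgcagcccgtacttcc
The first 4 carry runs of 20, 18, 17 and 14 pyrimidines. Rps15 has none longer than 7 in this window, and the one marked lies before the annotated start. A run of at least 8 C or T on the transcript's strand lay in the window of 15 of the 30 members with an entry (50%), against 6965 of 27025 genes (25.8%). The window covers both sides of the start, so a counted run can lie before it and outside the transcript, as in Rpl39. The letters ACANNNTGT, the core of a palindromic glucocorticoid receptor element and the same on both strands, lay in the 300-base promoter of 1 of the 30 members (3.33%), against 7.90% of all genes. These matches describe letters and not binding. The start used by these cells was not measured.

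None of the 38 ribosomal protein genes passed the test between dexamethasone and vehicle. The median difference over the 38 was 0.05, with 20 genes above 0 and 18 below, and the quartiles were -0.21 and 0.30. Over all 27046 genes and unnamed probes tested the median difference was 0.32, so the family lay 0.27 below the array as a whole. Only 4 members (10.5%) differed by more than 1 in either direction, against 29.2% of all features, and the median size of a difference was 0.243 against 0.515. Of the 38 differences, 30 were within 0.5 of 0 (78.9%, against 49.2% of all features). These sizes include the shift of whole arrays. With each array centred on its own median, the median size was 0.402 against 0.518, a smaller contrast. The share beyond 1 was then 7.89%, against 24.2%.

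The test was limma's moderated test across all features with Benjamini-Hochberg adjustment at 0.05, two-sided. It called 0% of all features too, and the members' adjusted p-values ran from 0.732 to 0.987. At an unadjusted p under 0.05, 0 members were higher and 0 lower, against 4.43% and 0.995% of all features. The moderated standard error of a member's difference had a median of 0.256, against 0.590 over all features, which is larger than the members' median difference in size; a p that misses the threshold does not show that a member did not differ. With whole-culture RNA, fewer cells making a transcript and less of it per cell cannot be told apart.

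The flag used here for low signal fell less often on the ribosomal protein genes than on the array at large. Of the 74 member probes, 13 (17.6%) counted as low in signal, against 39.9% of all probes. A probe counted so if on any array its value was missing, was larger than 10 in size or equalled, at the 3 decimals deposited (tolerance 1e-06), the log2 of a quotient of integers between 1 and 10. A value can also equal such a quotient by coincidence, and how often it does was not worked out. The flag therefore does not show that a given probe had low signal. When the flagged probes were left out, 33 members remained among 17152 features. In that fit 0.169% of features passed the adjusted test, none of them a ribosomal protein gene. At an unadjusted p under 0.05, 0 members were higher (all features 4.90%) and 2 were lower (all features 2.56%), Rpl27a and Rps15, both with an adjusted p of 0.574. The members' median was then -0.06, against 0.17 over all features.

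The arrays differed in how far the family lay from the array's own middle. The median over the ribosomal protein genes was -0.07, 0.07 and 0.12 on vehicle arrays 1, 2 and 3, and -0.01, 0.25 and 0.05 on dexamethasone arrays 1, 2 and 3. The median over all features was -0.12, -0.13 and 0.19 under vehicle and -0.14, 0.70 and 0.60 under dexamethasone. The family thus stayed between -0.07 and 0.25 while the array median ranged over a wider interval. Relative to each array's median the family lay at 0.04, 0.21 and -0.07 under vehicle and at 0.13, -0.45 and -0.55 under dexamethasone. Dexamethasone array 1 lay within the range of the vehicle arrays, and dexamethasone arrays 2 and 3 lay below it.

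Another property of the arrays moved with this relative position. Values equal to the log2 of such small integer quotients, at the same tolerance, made up 7.73%, 10.5% and 12.7% of all values on vehicle 3, dexamethasone 2 and dexamethasone 3, and 1.86%, 1.95% and 3.79% on vehicle 1, vehicle 2 and dexamethasone 1. Among member probes that share stayed between 1.35% and 4.11% on every array. The family's median difference relative to all features was 0.02 within the 3 arrays of low share and -0.20 within the 3 of high share. The family's own median difference was -0.03 and 0.05 in these sets. The part of this array property in the relative shift was not tested.

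**Figure D1:**
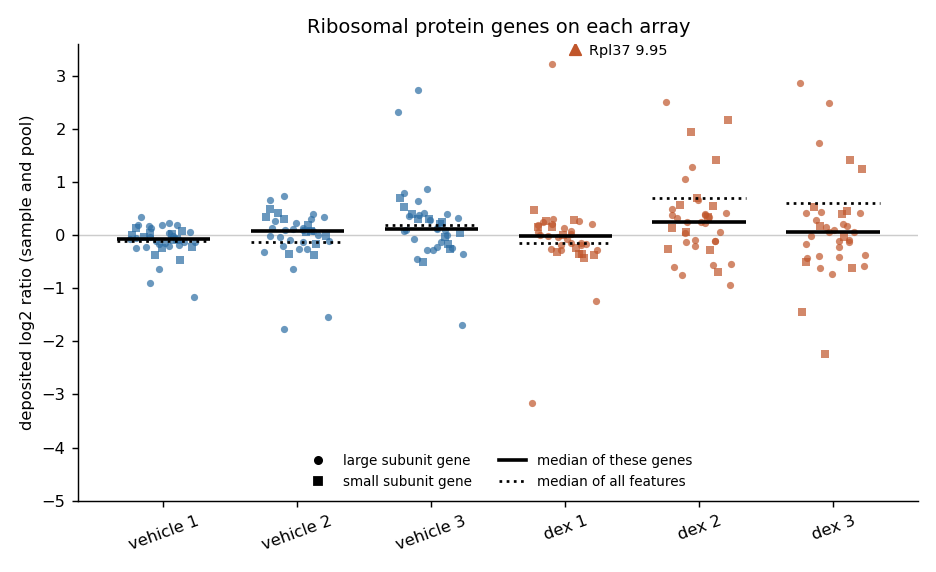
Deposited log2 ratio (vertical axis) of each ribosomal protein gene on each of the 6 arrays, with circles for large and squares for small subunit genes; solid lines are the median of these genes and dotted lines the median of all features. The solid lines stay between -0.07 and 0.25, while the dotted lines reach 0.70 and 0.60 on dexamethasone arrays 2 and 3; Rpl37 on dexamethasone 1 lies beyond the axis at 9.95.

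Over all probes, the members scattered less than features in general. The interquartile range over members was 0.256, 0.434 and 0.544 under vehicle and 0.463, 0.672 and 0.805 under dexamethasone. Over all features it was 0.533, 0.722 and 0.942 and then 0.808, 1.5 and 1.74. Over all probes the family's range was thus the narrower on each array. With low-signal probes left out it was not on vehicle 3 (0.614, against 0.419 over all features), and it was close on vehicle 2 (0.422 against 0.446) and dexamethasone 1 (0.414 against 0.448). On dexamethasone 2 and 3 it stayed narrower, at 0.661 and 0.794 against 1.19 and 1.43. From array to array, the spread of a single gene was larger under dexamethasone in 21 of the 37 members measured on all arrays (56.8%), against 84.2% of all features. The median SD of a member was 0.154 under vehicle and 0.290 under dexamethasone (n = 3 each), against 0.259 and 0.836 over all features. The mitochondrial ribosomal protein genes, compared below, had narrower interquartile ranges than the members on each array. These were 0.254, 0.19 and 0.284 under vehicle and 0.249, 0.481 and 0.53 under dexamethasone.

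Among large subunit genes the median difference was -0.01, with 13 of 26 above 0. The small subunit genes had a median of 0.20, with 7 of 12 above 0. With each array centred on its own median, these medians became -0.32 and -0.11, and 28 of the 38 members then lay below 0. The split of the family around 0 therefore turned on the centring.

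Dexamethasone and vehicle arrays did not overlap for 7 of the 37 members measured on all arrays. Rpl15, Rpl29, Rpl37 and Rps3 had all dexamethasone values above all vehicle values (10.8%, against 9.95% of all features), and Rpl27a, Rpl32 and Rps15 had them below (8.11%, against 7.29%). The place of Rpl37 rested on a probe that read 30.8 on dexamethasone 1. Its other probes read -0.75 and -0.21 on that array. With low-signal probes left out, 2 of 33 members lay above (6.06%, against 10.4%) and 3 below (9.09%, against 9.33%). All these shares were near those of the array as a whole.

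Rps15, a protein of the small subunit head near the decoding site, had the smallest p of the family. It stood at 0.07, -0.16 and -0.26 under vehicle and at -0.43, -0.70 and -0.62 under dexamethasone. Every dexamethasone value was below every vehicle value. The difference was -0.47 ± 0.19 (SE), with an adjusted p of 0.732. It was alike in both sets of arrays, -0.39 within the low-share and -0.40 within the high-share set.

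Rpl27a, a large subunit protein, was measured by 2 probes. Their mean was 0.19, 0.14 and 0.09 under vehicle and -0.01, -0.61 and -0.43 under dexamethasone, again without overlap. Dexamethasone array 1 lay close to the vehicle arrays and the other two lay further below. The difference was -0.49 ± 0.22 (SE), and the 2 probes gave -0.67 and -0.31. Within the low-share and the high-share arrays it was -0.18 and -0.61. Without dexamethasone array 1, Rpl27a and Rps15 had an unadjusted p under 0.05 below 0, 5.41% of 37 members against 4.07% of all 23822 features in that fit, and 0% of features passed the adjusted test.

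Rpl32, a large subunit gene often taken as a reference, stood at -0.09, 0.40 and 0.41 under vehicle and at -0.15, -0.11 and -0.12 under dexamethasone. The dexamethasone arrays lay close together, and vehicle 1 lay nearer to them than to the other vehicle arrays. The difference was -0.36 (adjusted p = 0.732). Rpl41, the smallest ribosomal protein, had a like split of the vehicle arrays, at -0.04, 0.74 and 0.65. It stood at 0.21, -0.14 and -0.62 under dexamethasone, so the groups overlapped, and the difference was -0.63. Rpl10, which joins the large subunit late and shapes its catalytic centre, stood at -0.05, 0.67 and 0.79 and at 0.06, 0.38 and -0.16, a difference of -0.37 with overlap.

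The same split of the vehicle group was seen in the small subunit. Rps20, a head protein of the small subunit, stood at 0.13, 0.49 and 0.53 under vehicle and at 0.16, 0.14 and -0.51 under dexamethasone, and its 2 probes gave differences of -0.45 each. The probes did not share the split. Under vehicle 1 of them read -0.025, 0.823 and 0.884, and the other 0.289, 0.147 and 0.169, highest on vehicle 1. Rps21 stood at -0.09, 0.20 and 0.25 and at -0.25, -0.28 and -0.04. In 5 of 37 members (13.5%), Rpl10, Rpl32, Rpl41, Rps20 and Rps21, vehicle 2 and 3 were both more than 0.25 above vehicle 1 and dexamethasone 1, against 8.55% of all features. In these genes the vehicle arrays alone spanned from 0.347 (Rps21) to 0.839 (Rpl10). This count was made after their values were seen. All of these genes but Rps20 had 1 probe, so their split was not seen on a further probe.

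Above 0, Rpl15 had the smallest p. This core protein of the large subunit stood at -0.25, -0.01 and 0.08 under vehicle and at 0.19, 0.50 and 0.42 under dexamethasone. The groups did not overlap, and the difference was 0.43 ± 0.20 (SE; adjusted p = 0.732). It was 0.32 within the low-share and 0.38 within the high-share arrays. Its only probe carried the flag used here for low signal and was therefore left out of the filtered fit. That probe had a value on every array, from -0.25 to 0.50, so none was missing or extreme in size. The flag thus rested on equality with the log2 of a small integer quotient, which can arise by coincidence. It does not show low signal for Rpl15. With each array centred on its median the difference was 0.12.

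Rps3, which lines the channel where the transcript enters the small subunit, was measured by 2 probes that gave 0.23 and 0.26. It stood at 0.03, 0.06 and 0.20 under vehicle and at 0.29, 0.35 and 0.40 under dexamethasone. All dexamethasone values were higher, by a difference of 0.25 ± 0.17 (SE). After centring the difference was -0.06, so its direction turned on the shift of whole arrays. Rpl29 stood at -0.14, -0.26 and -0.27 and at -0.08, 0.25 and 0.10, a difference of 0.31 ± 0.18 (SE), which became 0.01 after centring.

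Rpl35, a protein at the exit of the peptide tunnel, was the member furthest from the pool under vehicle. It stood at -1.17, -1.55 and -1.69 there and at -1.23, -0.94 and -0.58 under dexamethasone. Every one of its values was below 0, the groups overlapped by dexamethasone 1, and the difference was 0.55 ± 0.27 (SE; adjusted p = 0.732).

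The largest positive differences that did not rest on an impossible value or a flagged probe were those of Rpsa and Rps24. Rpsa, the small subunit protein also known as the laminin receptor, stood at -0.46, -0.37 and -0.17 under vehicle and at -0.36, 1.42 and 1.42 under dexamethasone. Dexamethasone 1 lay among the vehicle arrays, and dexamethasone 2 and 3 lay far above them. The difference was 1.16 ± 0.55 (SE; adjusted p = 0.732), with 1.05 and 1.27 from its 2 probes. Within the low-share arrays it was 0.06 and within the high-share arrays 1.58.

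Rps24, a gene mutated in Diamond-Blackfan anaemia, stood at -0.21, -0.02 and 0.05 and at -0.37, 2.18 and 1.24. The difference of 1.08 ± 0.68 (SE) was -0.26 within the low-share and 1.66 within the high-share arrays. Its 2 probes gave 0.20 and 1.95. For both genes the difference came from dexamethasone arrays 2 and 3 and had no counterpart on dexamethasone 1. Without dexamethasone 1, Rpl15, Rpl35, Rps18, Rps24 and Rpsa had an unadjusted p under 0.05 above 0, 13.5% of 37 members against 25.1% of all features in that fit. The members' share was thus below that of the array as a whole.

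**Figure D2:**
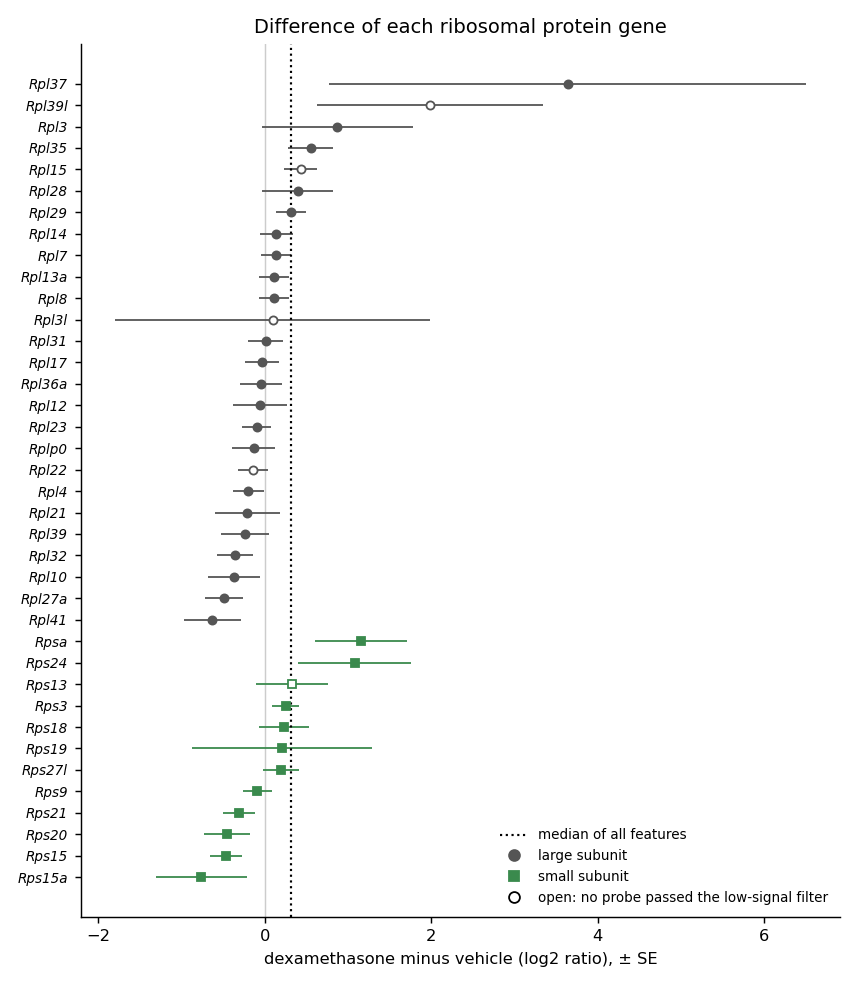
Difference between dexamethasone and vehicle (log2 scale, horizontal axis) for each ribosomal protein gene, with its moderated standard error as the bar; circles are large and squares small subunit genes, open symbols have no probe left after the low-signal filter, and the dotted line is the median of all features. The genes run from Rps15a at -0.76 to Rpl37 at 3.64, and none passed the adjusted test.

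Rps15a, a small subunit protein, had the most negative difference, -0.76. It stood at 0.01, 0.33 and 0.70 under vehicle and at 0.47, -0.26 and -1.45 under dexamethasone. Its arrays were spread widely in both groups, which overlapped. Rpl31, at the tunnel exit, had the difference closest to 0 in the large subunit, 0.01. It stood at 0.04, 0.09 and 0.13 and at 0.02, 0.40 and -0.12. Rps9, at the entry of the transcript channel, was closest to 0 in the small subunit at -0.09 over 4 probes, with 0.04, 0.30 and 0.31 under vehicle and 0.15, 0.05 and 0.18 under dexamethasone.

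The 16 members not chosen by the naming rule had differences from -0.24 for Rpl39, which lines the peptide tunnel, to 0.87 for Rpl3, a core protein near the catalytic centre. Rpl3 stood at -0.64, -0.63 and 0.87 under vehicle and at -0.19, -0.09 and 2.49 under dexamethasone. Array 3 was the highest in each group for this gene, and the groups overlapped.

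Rplp0, the base of the stalk that recruits elongation factors and a common reference gene in PCR, stood at 0.23, 0.13 and 0.11 under vehicle. Under dexamethasone it stood at 0.08, 0.39 and -0.41, which spans the vehicle values on both sides. Its difference of -0.14 changed to 0.08 without dexamethasone 3, and its 2 probes gave -0.42 and 0.15. For this gene the spread among dexamethasone arrays was larger than the difference between groups.

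Rpl13a, which can leave the ribosome to silence inflammatory transcripts and is also a common reference gene, allowed probes of 1 transcript to be compared. Its mean over 21 probes was -0.13, -0.003 and -0.25 under vehicle and -0.17, 0.07 and 0.06 under dexamethasone, a difference of 0.11 ± 0.18 (SE). The groups overlapped, and the single probes gave differences from -0.21 to 0.73, 14 of them above 0 and 7 below. The SD over the 21 probes was 0.077 and 0.064 on vehicle 1 and 2, 0.095 on dexamethasone 1, and 0.402 and 0.268 on dexamethasone 2 and 3. On vehicle 3 it was 0.379, or 0.067 without 1 probe at -1.87. That probe apart, the probes of this transcript were furthest from each other on dexamethasone arrays 2 and 3. All 21 probes lay within 0.25 of the median of the 21 on vehicle 1, vehicle 2 and dexamethasone 1, against 10 on dexamethasone 2 and 16 on dexamethasone 3. Those arrays also had the highest median SD over the 22 genes with at least 10 probes, 0.444 and 0.318, against 0.142, 0.208 and 0.227 under vehicle and 0.189 on dexamethasone 1. The probes share 1 RNA per array, so this spread is of probes and not of cultures.

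**Figure D3:**
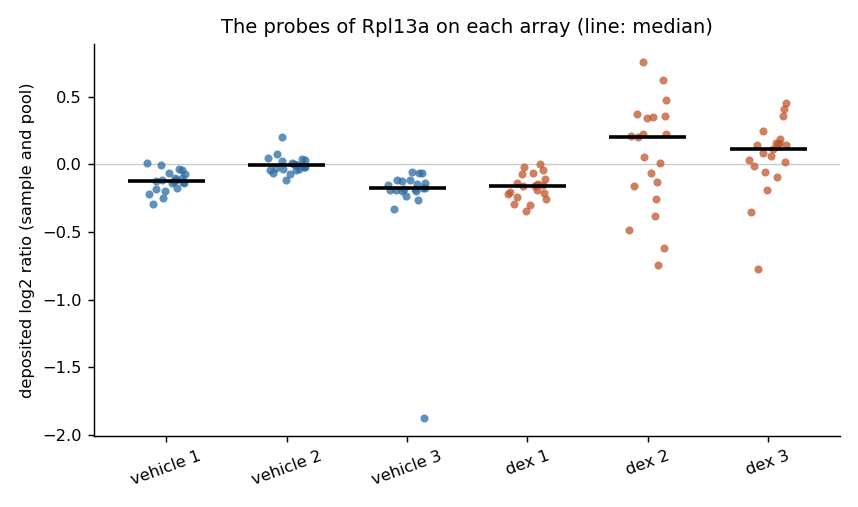
Deposited log2 ratio (vertical axis) of the 21 Rpl13a probes on each of the 6 arrays, 1 point per probe. The points sit close together on vehicle 1, vehicle 2 and dexamethasone 1 (SD 0.077, 0.064 and 0.095) and spread on dexamethasone 2 and 3 (0.402 and 0.268).

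Some large values rested on single probes. One of the 3 probes of Rpl37, a zinc-binding protein of the large subunit, read 30.8 on dexamethasone 1, a size that no log2 ratio of scanner intensities has. It took the gene's mean there to 9.95, beside -0.02, -0.25 and -0.13 under vehicle and 0.35 and 0.20 on dexamethasone 2 and 3. The fitted difference of 3.64 ± 2.86 (SE) became 0.16 without values beyond 10 and -0.19 without low-signal probes. One of the 2 probes of Rps19, another Diamond-Blackfan anaemia gene named here for its values, read 4.25 on dexamethasone 2 and -5.55 on dexamethasone 3. Rps13 had no value on vehicle 2 and dexamethasone 3, and its fit used the other 4 arrays.

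Among the duplicate genes, Rpl3l is known from heart and skeletal muscle, Rpl39l from testis and Rps27l as a p53-responsive relative of Rps27. Rpl3l stood at -0.07, -0.32 and 2.32 under vehicle and at -3.16, 2.50 and 2.87 under dexamethasone. Rpl39l stood at -0.90, -1.78 and 2.73 and at 3.22, 1.05 and 1.74. Both were among the most scattered members, and neither had a probe left after the low-signal filter. Their differences were 0.09 ± 1.89 and 1.99 ± 1.36 (SE). Rps27l kept its probe and stood at -0.04, 0.41 and 0.39 and at 0.27, 0.56 and 0.52, a difference of 0.19 that became -0.11 after centring. Without these duplicate genes the median of the other 35 members was -0.03.

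A further 39 probes list a ribosomal protein gene together with other genes, mostly its pseudogenes, and the rule left them out. Since they match several genes, no gene is named from them. Their median difference was -0.21, with 29 below 0 and 10 above, and 1 had an unadjusted p under 0.05 below 0 (all features 0.995%). They were flagged as low in signal in 2 of 39 cases (5.13%). Relative to the array median they lay at 0.12, 0.24 and -0.13 under vehicle and at 0.13, -0.78 and -0.68 under dexamethasone. The arrays above and below 0 were those of the 38 genes. In 10 of the 39 (25.6%), vehicle 2 and 3 were more than 0.25 above vehicle 1 and dexamethasone 1, against 8.55% of all features.

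The mitochondrial ribosomal protein genes, which serve the separate ribosome of mitochondria, were compared in the same way. Their 76 members had a median difference of 0.11, with 52 above 0 (68.4%, against 68.2% of all features), and 0 passed the adjusted test. With each array centred the median was -0.20, with 20 above 0. Relative to the array median they lay at 0.09, 0.15 and -0.20 under vehicle and at 0.12, -0.50 and -0.42 under dexamethasone. Both families thus lay below the array median on dexamethasone 2 and 3 and above it on dexamethasone 1. In 70 of the 76 (92.1%) the SD was larger under dexamethasone, against 56.8% of the cytosolic members. The median SD of the 76 was 0.069 under vehicle and 0.291 under dexamethasone, against 0.154 and 0.290 for the cytosolic members. The 2 families thus differed in spread under vehicle and hardly under dexamethasone. The median size of a difference was 0.172 over the 76, against 0.243 over the cytosolic members. None of the 76 showed the split of the vehicle arrays. Mrpl21 had the smallest p, with -1.26, -0.07 and 1.30 under vehicle and 2.59, 2.20 and 2.00 under dexamethasone (difference 2.27, adjusted p = 0.732). With low-signal probes left out, the largest difference over the 72 remaining genes was 1.675, so the 2.27 did not stand in that fit.

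**Figure D4:**
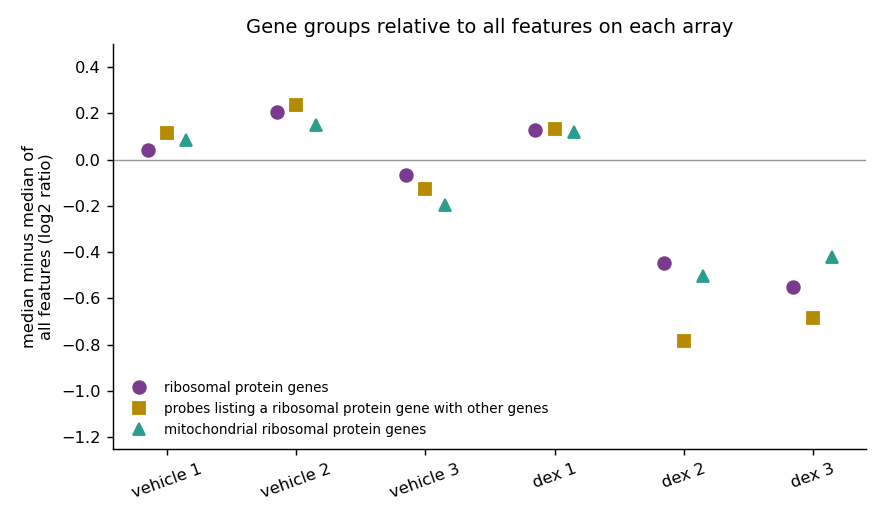
Median of each gene group minus the median of all features (log2 scale, vertical axis) on each of the 6 arrays, for the 38 ribosomal protein genes, the 39 probes with several symbols and the 76 mitochondrial ribosomal protein genes. All 3 groups lie above 0 on vehicle 1, vehicle 2 and dexamethasone 1 and below 0 on vehicle 3, dexamethasone 2 and dexamethasone 3.

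Other lists of translation genes had medians near 0 before centring. The 32 initiation factor genes had a median difference of 0.01, the 8 elongation and poly(A) factor genes 0.00 and the 33 ribosome biogenesis genes 0.07, the last running from -0.72 to 1.11. With each array centred these medians were -0.30, -0.30 and -0.24, with 27 of 32, 7 of 8 and 23 of 33 genes below 0, so their position around 0 turned on the centring. No gene of these lists passed the adjusted test. Of the 33, only Wdr12, a factor of large subunit maturation, had an unadjusted p under 0.05, above 0 (all features 4.43%). It stood at -0.10, -0.01 and -0.13 under vehicle and at 0.27, 0.44 and 0.50 under dexamethasone, a difference of 0.48 ± 0.17 (SE; adjusted p = 0.732).

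Of 19 genes of the mTOR pathway and of TOP transcript control, 2 had an unadjusted p under 0.05, both above 0 (all features 4.43%). None passed the adjusted test. Ddit4, an inhibitor of mTOR complex activity that glucocorticoids induce, stood at -0.59, -0.70 and -0.78 under vehicle and at 0.84, 0.56 and 1.09 under dexamethasone. Its groups were well apart, with a difference of 1.52 ± 0.21 (SE; adjusted p = 0.256). Sesn1, a stress-responsive inhibitor of the same pathway, stood at -0.48, -0.41 and -0.48 and at 0.76, -0.02 and 0.51, a difference of 0.87 ± 0.26 (SE; adjusted p = 0.732). Dexamethasone 1 gave the largest value for Sesn1, in contrast to Rpsa and Rps24. The 7 glucocorticoid target genes, listed with their response in these arrays already known, had a median difference of 1.95. Of them, 6 had an unadjusted p under 0.05 above 0 (all features 4.43%), and 1 had a difference below 0, at -0.40.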

How the data were processed

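The 2-colour arrays (3 vehicle, 3 dexamethasone) were grouped by sample title. The log2 scale of the deposited ratios was inferred, since no source used here states it. On vehicle 3 and the dexamethasone arrays some deposited values exceed 100 in size, so these columns were treated as a score that is log2 for most probes. Per the submitters' processing notes the authors used limma; no background correction or normalization is stated there. Columns of no mapped sample numbered 0, and scanner intensities were not used here, so signal over background is unknown; the number of arrays limits the precision.

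Probes with 1 symbol were averaged per gene (29456 probes; 760 with several symbols and 8251 unlisted were kept singly). Of the symbols, 28735 probes matched RefSeq by Entrez identifier. Features with values on at least 2 arrays per group were fitted with limma 3.58.1 in R 4.3.3 (lmFit, eBayes), with no further normalization and no block. The fit with low-signal probes left out was tested on simulated data, drawn as normal values with the same SD in both groups. The main fit was not tested in this way. An exact permutation test of 3 against 3 arrays cannot go below 0.1 and was not used. Replicate numbers do not pair cultures by the labels. The members, lists and array sets were chosen with earlier results of these data known. Named members are the 8 smallest p in each direction, the stalk, the duplicate genes, the member closest to 0 per subunit, the 3 with the most discordant probes and Rpl10; from other lists, genes with the smallest p. Members outside this rule are named for their values or in counts. Alternatives were a replicate block, an array-set block, centring, quantile normalization, filters on low signal and extreme values, other probe handling, array weights, a robust prior and leaving out each array; values within each array set were added after seeing the data.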

Additional observations from a re-analysis of the deposited data

How the results depend on the processing

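No ribosomal protein gene passed the adjusted test in any of the fits run, leave-one-out fits included. The median difference of 0.05 moved to -0.26 with each array centred on its median and to -0.30 with quantile normalization. Its relative value of -0.27 was 0.017 within the low-share arrays, -0.11 with the array-set block and from -0.52 to -0.11 when 1 array was left out. The members higher at an unadjusted p under 0.05 numbered 0, but 2 with array weights (Rps24 and Rpsa; 5.26%, against 6.95% of all features) and 0 to 5 when 1 array was left out, 5 without dexamethasone 1 (13.5%, against 25.1%) and 1 without vehicle 3 (Rpl39l; 2.70%, against 5.78%). The members lower numbered 0, but 2 with low-signal probes left out (6.06%, against 2.56%), 1 with each probe on its own (all probes 1.36%), 1 with values on all arrays (Rps15; 2.70%, against 1.45%), 1 with array weights (Rpl27a; 2.63%, against 1.59%) and 0 to 2 when 1 array was left out, 2 without dexamethasone 1 (5.41%, against 4.07%). The causes were not tested. The replicate block gave a median difference of 0.05, a relative value of -0.28 and 0 calls. The deviations of same-numbered arrays correlated at 0.30, -0.10 and 0.25. Vehicle 1 and vehicle 3 correlated best with the dexamethasone array of their own number, and vehicle 2 with dexamethasone 1 (0.21). The labels do not pair the cultures, and the numbers were not taken as pairs. Over 22 named members, 352 of 371 alternative values kept the sign of the difference. This count includes settings that cannot change a difference. For a gene with values on all arrays these include the replicate block, the robust prior and the fit limited to features with values on all arrays. For a gene with 1 probe, the handling of probes is another. The count is therefore no measure of how stable the signs were. Signal over background is not known here, so low signal could be judged only from the ratios themselves.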
